A study of Mus musculus with 3 samples.

Results

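Atoh7 peaks in gene deserts were the peaks whose midpoint lay more than 100 kb from every protein-coding gene and more than 5 kb from either end of every long non-coding RNA (lncRNA) gene. By this rule, applied to chromosomes 1 to 19 and X of the mm10 build, 395 of 3662 peaks lay in deserts (10.8%, 95% Wilson interval 9.82 to 11.8%). The rule used positions alone, so the distances below describe how the peaks were chosen. It used neither the names of flanking genes nor the widths and spacing of peaks. Spacing is still tied to it in part, since peaks close to genes cannot be near neighbours of a desert peak. The peaks come from CUT&RUN, an assay in which nuclease tethered by an antibody frees short DNA fragments around a bound protein. The material was retina of C57Bl6/J mice at embryonic day 14, with 2 libraries made with an Atoh7 antibody and 1 with IgG as the background control, and the labels name no mutation or treatment. Whether these 2 libraries stem from different animals is not stated in the labels. The deposited peak list is a single set of positions and widths with no value per library, so replicates could not be compared, the IgG background at a desert peak is not analysed here, depth is unknown, and no p-value was computed. Intervals on shares cover counting of peaks only.

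Atoh7, of the basic helix-loop-helix (bHLH) family of transcription factors, is made at the birth of retinal neurons and is needed for most retinal ganglion cells, the output neurons of the eye. Proteins of this family bind as dimers to a short motif called an E-box, written CANNTG. Gene deserts are long stretches without protein-coding genes, and those beside developmental regulators are known for enhancers that act over long distances on a gene at the edge. Which gene a desert peak acts on cannot be read from its position.

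No genome sequence was used here, so the letters under the desert peaks are not shown. RefSeq promoter windows of GRCm38.p6, the assembly named mm10, were used instead. They show places where a listed peak met the bases before an annotated start of a gene beside a desert with peaks. Of the 56 developmental transcription factor genes at the flanks of desert peaks, 36 had such a window, and in 3 of them a listed peak overlapped the 250 bases before that start. They were Pou4f1, a POU-homeodomain factor of ganglion cells, Pou3f2, a POU factor of developing neurons, and Klf7, a zinc finger factor linked to axon growth. The peak at Pou4f1 was 403 bp wide (chr14:104468039-104468441) and covered 211 of these bases, the peak at Pou3f2 was 460 bp wide (chr4:22488282-22488741) and covered all 250, and the peak at Klf7 was 313 bp wide (chr1:64121534-64121846) and covered 106. The share of other genes with such an overlap is not given here, so 3 of 36 describes these genes only. Each window belongs to 1 annotated start, which need not be the outermost: those of Klf7 and Gm29976 lie inside the gene as the gene table bounds it, and that of Pou4f1 lies partly inside. The windows are printed 5′ to 3′ on the gene's strand, the minus strand in each, in lower case with every CANNTG in capitals. The fourth window belongs to the lncRNA gene Gm29976 and is shown because it was the annotated start nearest to any desert peak, 140 bp away from a peak 635 bp wide (chr7:83369350-83369984).
Pou4f1 (chr14:104468000-104468249): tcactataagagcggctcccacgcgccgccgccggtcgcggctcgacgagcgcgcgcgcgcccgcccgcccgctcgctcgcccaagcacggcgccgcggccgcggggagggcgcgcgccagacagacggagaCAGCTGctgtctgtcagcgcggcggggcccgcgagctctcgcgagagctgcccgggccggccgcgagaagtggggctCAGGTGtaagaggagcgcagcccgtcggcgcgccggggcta
Pou3f2 (chr4:22488367-22488616): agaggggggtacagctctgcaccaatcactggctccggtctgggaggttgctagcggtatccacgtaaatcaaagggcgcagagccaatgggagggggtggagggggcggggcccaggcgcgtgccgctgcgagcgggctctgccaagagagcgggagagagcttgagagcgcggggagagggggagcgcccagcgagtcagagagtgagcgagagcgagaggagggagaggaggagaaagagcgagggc
Klf7 (chr1:64121390-64121639): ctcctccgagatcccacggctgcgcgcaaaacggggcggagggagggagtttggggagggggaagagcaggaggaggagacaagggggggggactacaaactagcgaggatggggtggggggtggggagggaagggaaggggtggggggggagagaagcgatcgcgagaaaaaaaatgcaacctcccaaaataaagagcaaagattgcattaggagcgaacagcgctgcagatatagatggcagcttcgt
Gm29976 (chr7:83370125-83370374): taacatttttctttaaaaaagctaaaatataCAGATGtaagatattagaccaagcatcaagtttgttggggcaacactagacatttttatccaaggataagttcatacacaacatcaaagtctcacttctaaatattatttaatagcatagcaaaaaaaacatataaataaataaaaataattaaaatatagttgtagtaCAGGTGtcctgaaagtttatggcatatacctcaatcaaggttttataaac

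The Pou4f1 window held 2 E-boxes, first a CAGCTG and further on, nearer to the start of the gene, a CAGGTG. The peak covered the whole CAGCTG, but its edge fell within the CAGGTG, which it covered only in part. The Gm29976 window also held 2. The windows of Pou3f2 and Klf7 held 0 copies of CANNTG. Over 32851 RefSeq windows of the same length, 66.2% held CANNTG, 31.8% held at least 2 copies, 13% held CAGCTG, the form that stands first in the Pou4f1 window, and 14.4% held the form that stands first in the Gm29976 window, CAGATG, on either strand. The general motif reads the same on both strands, and the named hexamers are forms of it. An E-box in such a window was therefore common, and the matches are a description of these letters only.

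Desert peaks were sparse. Desert sequence, meaning all bases that met the same distances, made up 710.1 of 2612 Mb (27.2%), so that deserts held 0.556 peaks per Mb against 1.72 per Mb elsewhere. The distance to the nearest protein-coding gene ran from 100.8 to 1980 kb with a median of 231 kb (quartiles 151 and 428 kb). It was over 200 kb for 233 desert peaks (59.0%), over 500 kb for 72 (18.2%) and over 1000 kb for 22 (5.57%). The 5 farthest lay between Olfm4 and the protocadherin gene Pcdh17 (1980.0 and 1836 kb from the nearer gene), between the protocadherin gene Pcdh7 and G6pd2 (1580 kb), between D3Ertd751e and the protocadherin gene Pcdh10 (1550 kb), and between Slc10a2 and Efnb2 (1519 kb). Peaks this far out can lie only in the longest deserts. Protocadherins are cell adhesion genes, and Efnb2 encodes a membrane-bound ligand in axon guidance.

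The limit of 100 kb cut through a continuous range. The 5 desert peaks just inside it lay 100.8 kb from Tpra1 (beside the plexin gene Plxna1), 101.0 kb from Sesn3, 101.8 kb from Id4, 101.9 kb from Adra1b and 102.1 kb from Rsph14. The 5 peaks just outside it lay 98.9 kb from Opa1 (on the side of the Notch effector gene Hes1), 98.8 kb from Slc25a26, 98.4 kb from Ly86, 97.8 kb from Tmem132e and 96.7 kb from Tpra1. A pair of peaks between Tpra1 and Plxna1, 264 and 243 bp wide, therefore fell on either side of the limit.

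Most deserts held no listed peak. Of 1544 deserts, 265 (17.2%) held at least 1, of which 189 held a single peak, 50 held 2 and 26 held 3 or more. Those 26 deserts held 106 of the 395 desert peaks (26.8%). The fullest lay between the integrin gene Itga1 and Isl1 with 9 peaks, followed by Zfp608 to Gramd3 with 7 and Tle4 to Psat1 with 6. Tle4 encodes a Groucho corepressor, the class of protein that Hes factors recruit. Its 6 desert peaks lay from 103 to 1203 kb away and were 210 to 858 bp wide, and 2 more lay 319 and 323 kb away on the side of Olfr1505. Of the 6, those 1095 kb or more from Tle4 were nearer to Psat1, at 104 to 212 kb.

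Deserts with 5 peaks lay between Tmpo and Nedd1, between Dcc and Mex3c, and between Nphp4 and Ajap1. Dcc encodes a receptor for netrin on growing axons, and its 5 desert peaks, 316 to 597 bp wide, lay 290.0 to 1019 kb from it. Those 813 kb or more from Dcc were nearer to Mex3c, at 409 and 203 kb. Between Kif26a and A530016L24Rik, 4 peaks lay within 31.0 kb, at 138, 152, 168 and 169 kb from Kif26a, a kinesin-family gene. That gap measured only 308 kb, of which 74.8 kb was desert sequence open to such peaks. In contrast, 3 peaks between the protocadherin genes Pcdh20 and Pcdh9 were spread over 3750 kb, in a gap with 4264 kb of desert sequence. All 3 were narrow, at 191 to 214 bp. Counts alike in size therefore covered very different lengths.

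The other deserts with 4 peaks were Tenm2 to Mat2b, Nr2f1 to Arrdc3, Prl5a1 to Sox4, Rnf144b to Id4, Csnk1g3 to Zfp608, Lrrc4c to Iftap, Pcdh7 to G6pd2 and Slc10a2 to Efnb2. Deserts with 3 were Nmbr to Cited2, Id2 to Rnf144a, Sox11 to Dcdc2c, Olfm4 to Pcdh17, Pcdh20 to Pcdh9, Adcyap1 to Mettl4, Cxcr4 to Thsd7b, Npvf to Gm38821, Unc5d to Dusp26, Gm4791 to Cadm1 and Plod2 to Dipk2a. Cxcr4, a chemokine receptor of migrating cells, had its 3 desert peaks at 167, 241 and 414 kb, with widths of 361, 549 and 546 bp. Cadm1, an adhesion molecule of synapses, had its 3 at 145, 145 and 249.9 kb.

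**Figure D1:**
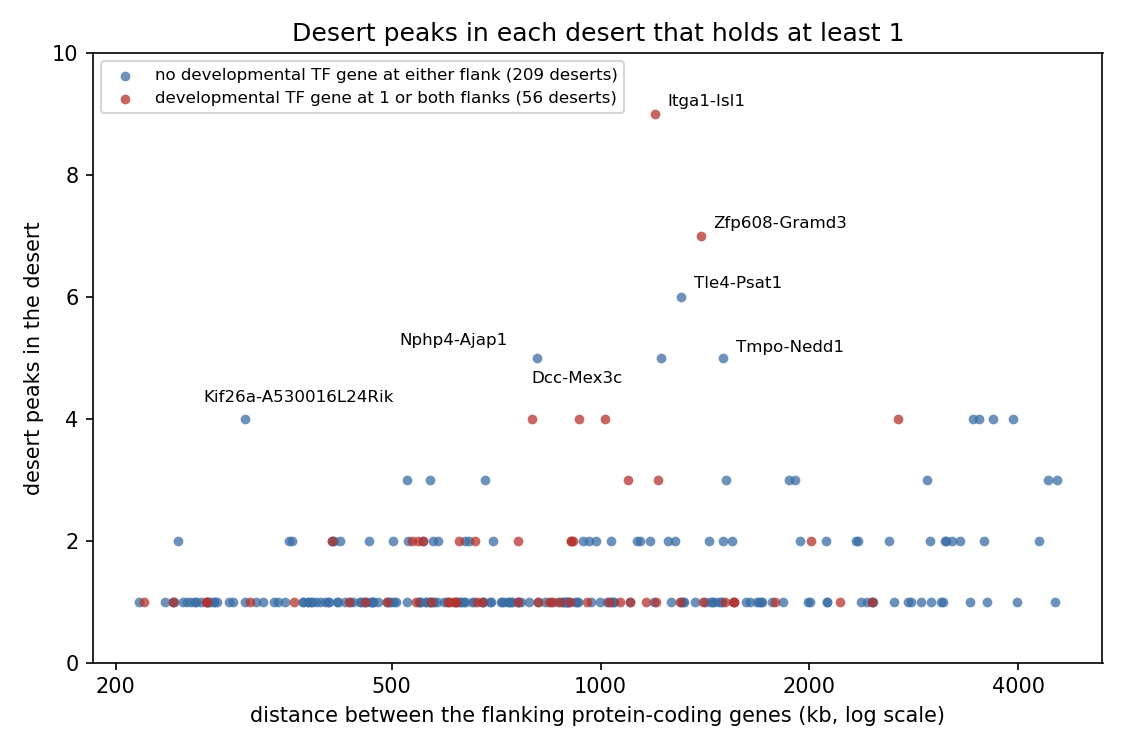
Each point is 1 of the 265 deserts that hold a desert peak, with the distance between its flanking protein-coding genes on the x axis (kb, log scale) and its number of desert peaks on the y axis. Deserts with a developmental transcription factor gene at 1 or both flanks are red and the others blue, and 189 points lie at 1 peak, 20 of the 40 points over 2 Mb lie higher, and the Itga1 to Isl1 desert stands highest with 9.

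Developmental transcription factor genes flanked desert peaks more often than they flanked desert sequence. The list of such genes held 581 genes found in the gene table, among them some cofactors. Of the 395 desert peaks, 97 had one of these as the next protein-coding gene on at least 1 side (24.6%, 95% Wilson interval 20.6 to 29.0%), beside 15.9% of deserts and 14.7% of desert bases. These deserts held 0.928 peaks per Mb against 0.492 per Mb in the others. A peak was present in 56 of 246 deserts with such a gene (22.8%) and in 209 of 1298 without one (16.1%), and 3 or more were present in 8 (3.25%) and 18 (1.39%). The deserts of Isl1 and Zfp608 carried part of this difference: without them the share was 76 of 374 (20.3%) beside 14.4% of bases, or 0.749 peaks per Mb. The difference was not tested.

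Desert length differed between the groups, with a median distance between flanking genes of 538 kb with a transcription factor gene and 407 kb without. Within classes of length, deserts beside a transcription factor gene held more peaks per Mb in all 4 classes. The values were 1.08 against 0.898 under 500 kb, 1.05 against 0.676 from 500 kb to 1 Mb, 0.970 against 0.398 from 1 to 2 Mb, and 0.465 against 0.308 over 2 Mb. The first and last classes rest on 11 and 8 peaks beside transcription factor genes. The deserts of Isl1 and Zfp608 weighed on the middle classes: without them the values beside transcription factor genes were 0.947 from 500 kb to 1 Mb (36 peaks) and 0.582 from 1 to 2 Mb (21 peaks), both still above those of the other deserts. Between 1 and 2 Mb, with all deserts, 43.2% of deserts with such a gene and 27.3% of the others held a peak, with Wilson intervals of 28.7 to 59.1% and 21.0 to 34.7% that overlap. Intergenic peaks nearer to genes, over 5 and up to 100 kb out, had a transcription factor gene at a flank in 79 of 535 (14.8%, 12 to 18%), beside 10.9% of such bases.

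**Figure D2:**
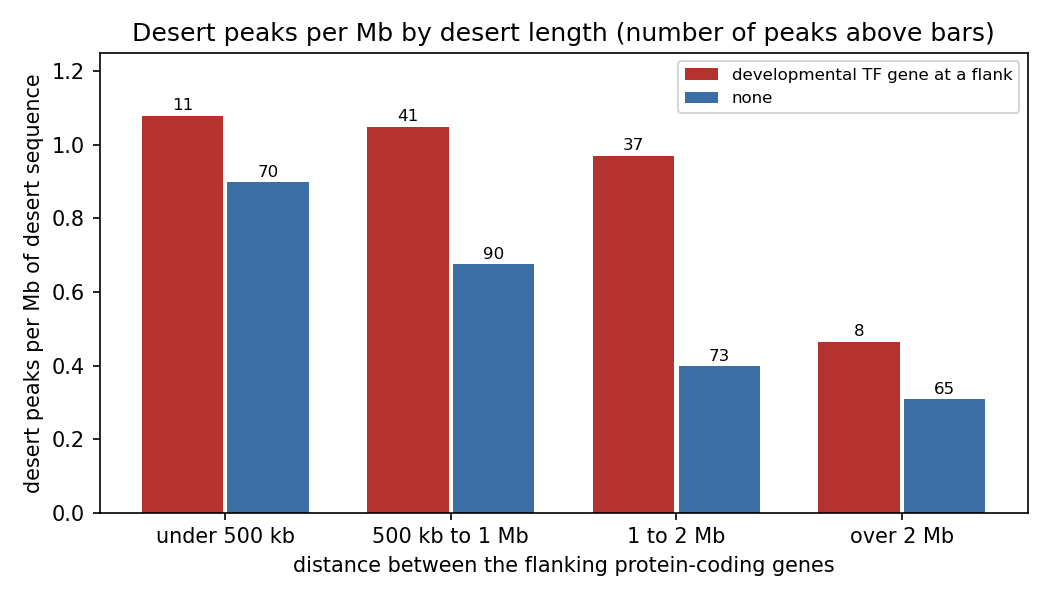
Bars give desert peaks per Mb of desert sequence (y axis, from 0) in 4 classes of the distance between flanking protein-coding genes (x axis), red for deserts with a developmental transcription factor (TF) gene at a flank and blue for the others, with the number of peaks above each bar and no error bars. Red bars stand above blue bars in each class, and the lowest bar of either colour is the one over 2 Mb.

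Isl1 had the most desert peaks of any factor known for ganglion cells, with 10. It encodes a LIM-homeodomain protein that acts beside Pou4f2 in these cells. The 9 peaks on the Itga1 side lay 442, 445, 601, 611, 624, 666, 870.4, 871 and 877 kb from the gene and were 240 to 643 bp wide. From Itga1 they lay 319.6 to 754.0 kb, and all those 601 kb or more from Isl1 were nearer to Itga1. The 9 peaks fell into separate groups within 434 kb, the farthest of which from Isl1 ran from chr13:115421419-115421808 to chr13:115427753-115427992. The last peak, on the Parp8 side, lay 205 kb from Isl1 and was 954 bp wide (chr13:116514637-116515590), the third widest of all desert peaks. No listed peak lay within 100 kb of Isl1 itself (chr13:116298270-116309688), and all 10 listed peaks that lay between Itga1 and Isl1 or between Isl1 and Parp8 were desert peaks.

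Sox4 and Sox11, a pair of closely related HMG-box factors that promote ganglion cell formation, had 4 desert peaks each and no listed peak within 100 kb of the gene. Those of Sox4 lay 230.3, 467, 533 and 538 kb away on the side of Prl5a1 and measured 489, 502, 871 and 224 bp. All but the nearest of these were closer to Prl5a1, at 259 to 330 kb. All 4 were inside lncRNA genes, Gm40841 for the 2 farther and 2610307P16Rik for the 2 nearer. Sox11 had peaks at 223, 233 and 304 kb on the side of Dcdc2c, with widths of 676, 422 and 352 bp, and 1 of 757 bp at 600 kb on the side of Cmpk2. The last was nearer to Cmpk2, at 255 kb. Pou4f1 had 1 desert peak, 105 kb away and 491 bp wide, inside the lncRNA gene D130079A08Rik, besides the peak that overlaps its window printed above. Klf7 likewise had 3 listed peaks inside the gene or within 1 kb, and desert peaks at 104 and 259 kb.

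Among factors of retinal progenitors, Pax6 had 1 desert peak, 154 kb away and 455 bp wide, inside the lncRNA gene 4930527A07Rik. The nearest listed peak to Pax6 lay 8.37 kb from the gene. Sox9, an HMG-box factor of progenitors and later of Müller glia, had 1 at 195 kb (469 bp), and Sox2, which keeps progenitors in the neural state, had 1 at 327 kb (414 bp). Prox1, a homeodomain factor of horizontal cells, had 1 at 163 kb (513 bp). Sox2, Sox9 and Prox1 each lacked any listed peak within 100 kb, so the desert peak was the nearest one to the gene. Nr2f1, a nuclear receptor with dorsoventral expression in the eye, had 4 peaks at 404, 444, 800.1 and 1147 kb (505, 475, 263 and 414 bp), and another listed peak lay 7.24 kb from the gene.

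Helix-loop-helix genes of the list had 12 desert peaks at 6 genes. Id2 and Id4 encode proteins without a DNA-binding region that hold bHLH partners inactive. Id4 had desert peaks at 102, 862, 863 and 906 kb, with widths of 345, 843, 261 and 230 bp, and Id2 had 3 at 448, 775 and 979.8 kb, with widths of 268, 310 and 484 bp. Those 862 kb or more from Id4 were nearer to Rnf144b, at 107 to 151 kb. Those 775 and 979.8 kb from Id2 were nearer to Rnf144a, at 436 and 231 kb. The nearest listed peak to Id2 lay 379 kb away, and neither Id gene had one within 100 kb. Mycn, a growth regulator of progenitors, had peaks at 123 kb (495 bp) and 325 kb (365 bp), and Myc, Sim1 and Tfec had 1 each at 913, 269 and 103 kb.

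Zinc finger genes had 31 desert peaks at 16 genes, the most of any family. Zfp608, which encodes a nuclear zinc finger protein, had 11, the most of any gene in the list. Of these, 7 lay 217 to 1144 kb away on the side of Gramd3 and 4 lay 168 to 513 kb away on the side of Csnk1g3, with widths of 229 to 576 bp over both sides. On the Gramd3 side, those 824 kb or more from Zfp608 were nearer to Gramd3. On the Csnk1g3 side, the farthest was nearer to Csnk1g3, at 419 kb. Unlike Isl1, Zfp608 also held 2 listed peaks inside the gene or within 1 kb. Sp8 had 2 at 120 kb (591 bp) and 195 kb (394 bp), Ebf2 had 1 at 120 kb (423 bp), Bcl11a had 1 at 197 kb (408 bp), Zfat had its nearer one at 104 kb (536 bp) and Gli2, a Hedgehog effector, had 1 at 203 kb (327 bp).

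**Figure D3:**
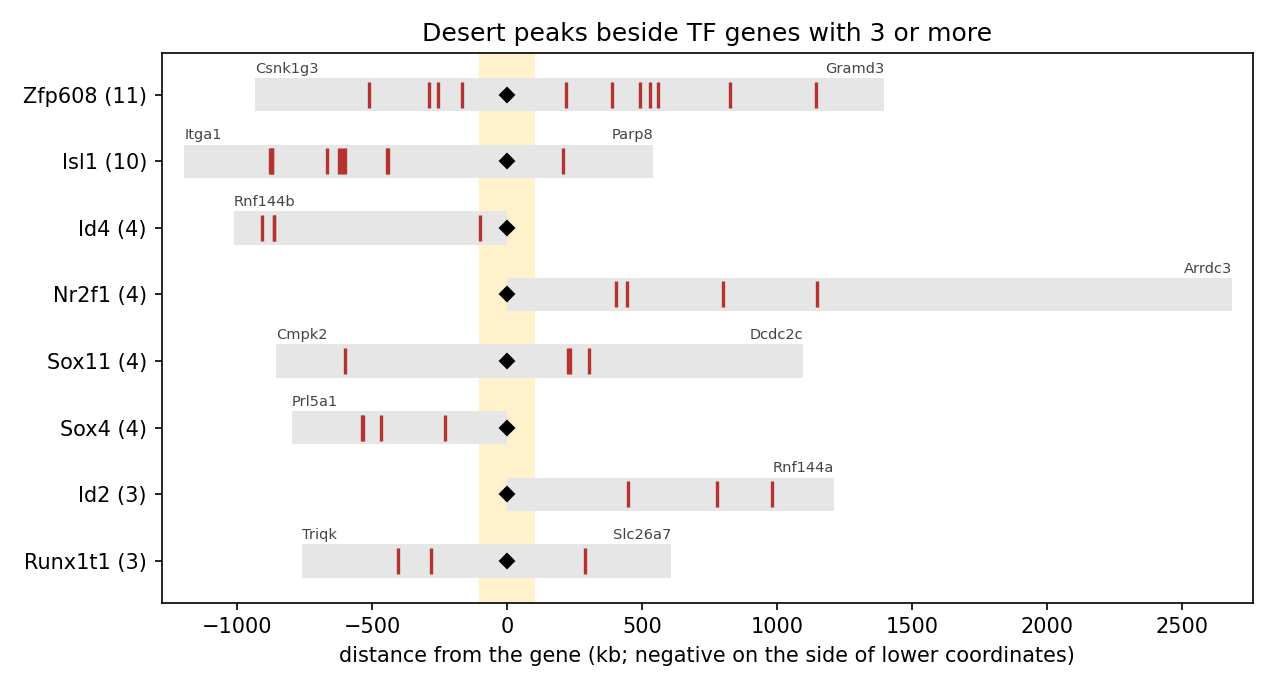
Each row is 1 of the 8 developmental transcription factor (TF) genes with 3 or more desert peaks, with the number in parentheses, and the x axis gives the distance from the gene in kb, negative towards lower coordinates. The black diamond is the gene, red lines are desert peaks, the grey bar reaches to the next protein-coding gene named above it and is drawn only on a side that holds desert peaks, and the yellow band covers the 100 kb in which no desert peak can lie. The nearest desert peaks of Isl1 and Sox4 stand 205 and 230.3 kb from the gene.

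Homeobox genes had 25 desert peaks at 16 genes (6.33% of desert peaks beside 3.64% of desert bases). Besides Isl1, Pax6, Prox1 and Pou4f1, the Iroquois genes, which occur in clusters, stood at both edges of their deserts. Between Irx2 and Irx4 lay 2 peaks, 1 at 142 kb from Irx4 (811 bp) and 1 at 216 kb from Irx2 (400 bp), and between Irx5 and Irx6 lay 1, 129 kb from Irx6 (188 bp). Meis1 had 1 at 119 kb (194 bp) and also 4 listed peaks inside the gene or within 1 kb, and Nkx6-1 had 1 at 162 kb (596 bp). In all, 6 desert peaks had a listed factor at both flanks, among them 1 between Hnf4g and Zfhx4 and 1 between Sall1 and Tox3.

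By family, the share of desert peaks beside the share of desert bases was 7.85% and 4.19% for zinc finger genes, 3.04% and 1.07% for helix-loop-helix genes, and 3.04% and 1.10% for Sox and other HMG-box genes. It was 2.78% and 2.43% for T-box, Runx and other genes, 1.77% and 1.97% for nuclear receptors, and 0.253% and 0.762% for forkhead genes. The share of peaks thus stood highest over the share of bases for helix-loop-helix and HMG-box genes, then for zinc finger and homeobox genes. This order rests largely on few genes. Isl1 had 10 of the 25 homeobox peaks and Zfp608 had 11 of the 31 zinc finger peaks. Sox4 and Sox11 had 4 each of the 12 HMG-box peaks, and Id4 and Id2 had 4 and 3 of the 12 helix-loop-helix peaks. For nuclear receptor and forkhead genes the share of bases lay within the interval of the share of peaks (0.861 to 3.61% and 0.0447 to 1.42%). The same held for T-box, Runx and other genes (1.56 to 4.92%). Other listed factors among the 25 peaks nearest to such a gene were Tbx3 (111 kb, 503 bp), Dmrta2 (112 kb, 600.0 bp) and Nr5a2 (115 kb, 245 bp). Further genes of the 56 were Runx1t1 with 3 desert peaks, Klf12 and Skor2 with 2, and Auts2, Ebf1, Etv1, Eya4, Gata3, Nr4a2, Shox2, Sall3, Sox5, Zfp521 and Zfp703 with 1.

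Desert peaks beside a listed factor lay about as often nearer to the other flanking gene. Of 91 with a listed factor at a single flank, 50 lay nearer to it than to the other flanking gene (54.9%, 44.7 to 64.8%), an interval that includes an even split. That interval treats peaks of the same desert as separate, and gathering at the factor's edge was not tested. Counting only the nearer gene, 56 of 395 desert peaks had a listed factor (14.2%), beside 7.94% of desert bases. The distance to the factor ran from 102 to 1868 kb with a median of 390 kb. The gene's start rather than its far end faced the peak in 35 of 67 pairs of known strand (52.2%, 40.5 to 63.7%), beside 56.3% of desert bases at such genes. Of the 56 genes, 11 had a listed peak inside the gene or within 1 kb and 34 had none within 100 kb. The same shares over other genes at desert edges are not given here, so these counts describe the 56 only.

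The other gene lists differed in size and in how many peaks they rest on. Notch pathway genes flanked 3 desert peaks (0.759%, 0.259 to 2.21%; 0.223% of desert bases). These were 1 of 677 bp at 119 kb from the ligand gene Dll1 and 2 of 199 and 262 bp at 589 and 614 kb from the ligand gene Jag1. Axon guidance genes flanked 22 (5.57%, 3.71 to 8.29%; 4.66% of bases), led by Dcc with 5, Efnb2 with 4 and the netrin receptor gene Unc5d with 3. Secreted signals and their receptors flanked 10 (2.53%, 1.38 to 4.6%; 3.15% of bases), 3 of them at Cxcr4, with Fgf9, Fgf20, Fgfr2, Ednrb and Inhbb at 1 each. For these groups the share of bases lay within the interval, except for the Notch genes, where it lay just under an interval that rests on 3 peaks.

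Cell adhesion and synapse genes flanked 64 desert peaks (16.2%, 12.9 to 20.2%), beside 21.5% of desert bases. Their deserts were long, held 0.419 peaks per Mb, and contained at least 1 in 40 of 113. By length the order was not one-way: deserts beside adhesion genes held 0.961 peaks per Mb under 500 kb (3 peaks) against 0.917 in the other deserts, 0.564 against 0.779 from 500 kb to 1 Mb, 0.205 against 0.541 from 1 to 2 Mb, and 0.443 against 0.213 over 2 Mb, where 47 of the 64 peaks lay. The lower share overall thus did not hold in the longest deserts. Cdh8, Lrrc4c, Pcdh7, Pcdh9 and Tenm2 had 4 each, and those of Tenm2, a teneurin that joins neurons at synapses, lay 1991 to 3303 kb from it and were nearer to Mat2b at the other edge. Cadherin and protocadherin genes, which bind like to like on neighbouring neurites, flanked 31 desert peaks at 18 genes (7.85%, beside 8.26% of bases), a grouping made after the values were seen. Ion channel and neurotransmitter receptor genes flanked 9 (2.28%, 1.20 to 4.27%; 5.57% of bases), each at a different gene, such as the glutamate receptor gene Gria2 at 359 kb and the potassium channel gene Kcnj6 at 122 kb. Against counts of deserts rather than bases, adhesion genes flanked 7.32% of deserts and channel and receptor genes 4.73%.

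**Figure D4:**
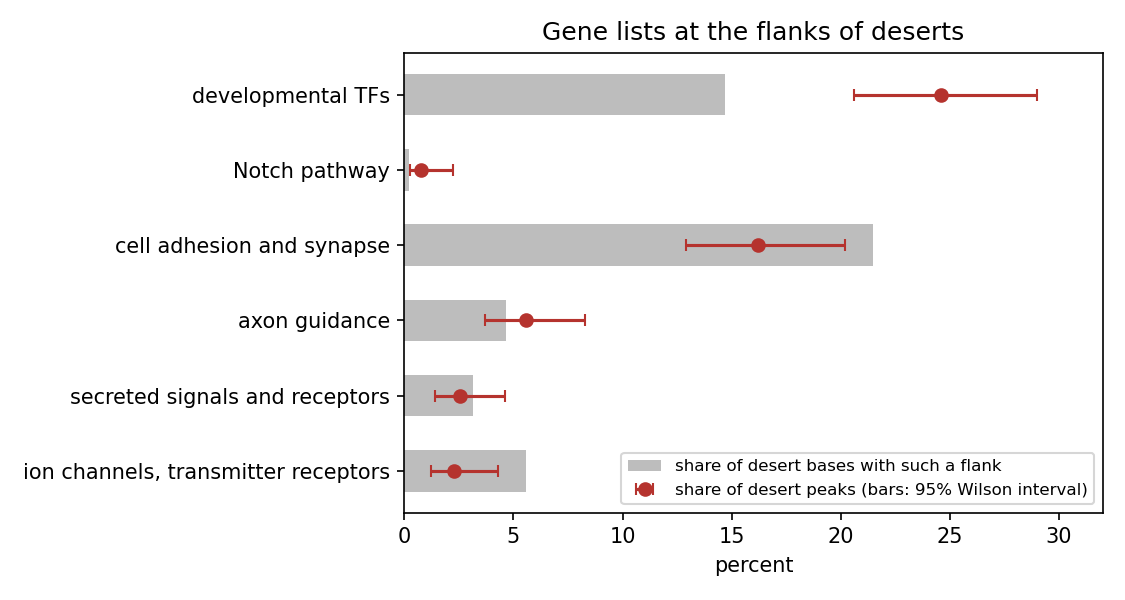
Points give the percent of the 395 desert peaks with a gene of each list at a flank, with 95% Wilson intervals as error bars, and grey bars give the percent of desert bases so flanked (x axis, percent, from 0). The point for developmental transcription factors (TFs) lies above its bar at 24.6 against 14.7, and those for adhesion genes and for ion channels and transmitter receptors lie below theirs.

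Desert peaks were slightly wider than other peaks. Width is the only value the list gives a peak and does not measure occupancy. The median was 403 bp in deserts (95% interval 386 to 424, quartiles 281.5 and 503.5, range 177 to 1003) and 378 bp elsewhere (268 and 482, range 177 to 1612). A width of 800 bp or more was found for 21 desert peaks (5.32%) and 80 others (2.45%), while under 200 bp the shares were 7.34% and 7.19%. Medians were 423 bp at 100 to 200 kb from a gene, 391 bp at 200 to 500 kb and 416 bp beyond, with quartiles that overlapped, so width showed no steady course with distance. Beside a listed transcription factor the median was 414 bp (quartiles 305 and 513) and elsewhere in deserts 396 bp (270.8 and 499.5). Intergenic peaks nearer to genes had a median of 383 bp.

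The 10 widest desert peaks lay between Gm40892 and the adhesion gene Flrt2 (1003 bp), Tnp1 and Tns1 (1002 bp), Isl1 and Parp8 (954 bp), Nmbr and Cited2 (926 bp), Nphp4 and Ajap1 (926 bp), Kcnj3 and Nr4a2 (893 bp), Saraf and Dusp4 (893 bp), Mki67 and Mgmt (883 bp), Camk1g and Plxna2 (879 bp), and Mn1 and Cryba4 (874 bp). The first was at chr12:93885824-93886826, 991 kb from Gm40892. Isl1 and the nuclear receptor gene Nr4a2 were the listed transcription factors among these flanks, Nr4a2 at 646 kb. Plxna2, a semaphorin receptor gene, lay 458 kb from its peak.

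**Figure D5:**
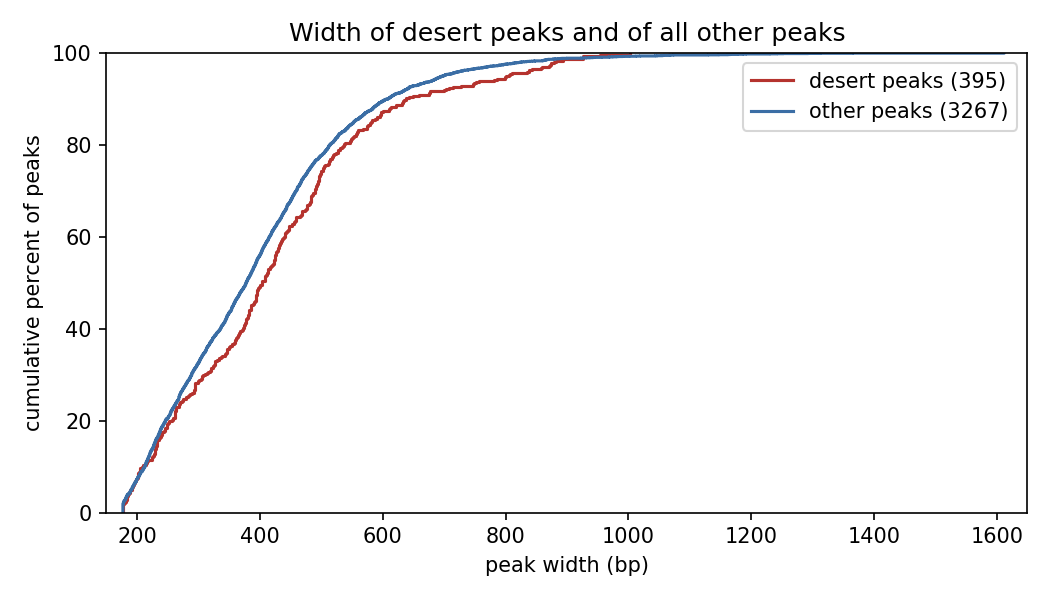
Cumulative percent of peaks (y axis) up to each width in bp (x axis) for the 395 desert peaks (red) and the 3267 other peaks (blue). The red curve runs to the right of the blue one over most of the range, with medians of 403 and 378 bp, and the curves meet at the narrow end and again near 900 bp.

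Desert peaks stood farther apart than other peaks, a difference that is tied to the rule. Any peak within 50 kb of a desert peak must itself lie over 50 kb from every protein-coding gene. Peaks close to genes could therefore be such neighbours of other peaks only. Another listed peak lay within 50 kb of 83 desert peaks (21.0%, 17.3 to 25.3%) and of 1224 other peaks (37.5%, 35.8 to 39.1%), and the median distance to the next listed peak was 261 and 96.2 kb. For intergenic peaks nearer to genes the share was 40.2% (36.1 to 44.4%). At 1 kb the shares were alike in size, 12 desert peaks (3.04%, 1.75 to 5.23%) and 116 others (3.55%, 2.97 to 4.24%). Among desert peaks the share within 50 kb was 26.8% (26 of 97) beside a listed transcription factor and 19.1% (57 of 298) elsewhere. The closest pairs were at Adcyap1, a neuropeptide gene, with 82 bp between peaks of 185 and 183 bp, at Isl1 with 57 bp between peaks of 274 and 240 bp, and at Cadm1 with 59 bp between peaks of 835 and 236 bp.

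LncRNA genes held 44 desert peaks inside them (11.1%, 8.40 to 14.6%), spread over 42 such genes, beside 7.54% of desert bases, and 351 lay outside any. The share was 12 of 97 (12.4%) beside a listed transcription factor and 32 of 298 (10.7%) elsewhere. Besides those at Sox4, Pou4f1 and Pax6, they were found in Gm38505 between Dnajc19 and Sox2 (414 bp, 242 kb from Dnajc19 and 327 kb from Sox2), in A330033J07Rik beside Id4 (345 bp), in Gm32067 beside Nr2f1 (505 bp) and in Gm35880 beside Klf7 (426 bp). Between Tmpo and Nedd1, 3 of the 5 desert peaks were inside lncRNA genes, Gm20757 and Gm40738.

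Chromosomes differed in how many desert peaks they held. Chromosome 13 had 39 (26.4% of its peaks, 1.26 per Mb of its desert), of which 24 lay beside a listed transcription factor, namely those of Isl1, Sox4, Id4, Nr2f1, Irx2 and Irx4. On the other chromosomes, 73 of 356 desert peaks lay beside one. Chromosome 12 had 36 (21.8% of its peaks, 0.842 per Mb) and chromosome 18 had 25 (22.9% of its peaks, 0.927 per Mb), each with 15 beside a listed factor. Chromosome 19 had 9 (7.56% of its peaks, 0.917 per Mb), with 0 beside one, and chromosome 17 had 4 (2.5% of its peaks, 0.185 per Mb). X had 3 in 57.2 Mb of desert (0.0525 per Mb). It held only 37 listed peaks in all, so these were 8.11% of its peaks, beside 10.8% over all chromosomes. The listed peaks of desert sequence were thus spread unevenly, and chromosome 13 held the most.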

How the data were processed

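The data were 3 CUT&RUN libraries of retina, 2 Atoh7 and 1 IgG, grouped by sample title. The deposited list holds, per the file headers, the position of each peak, its width in bp and a name, and no score or value per library. The submitters' processing notes name MACS2 2.2.7.1, Bowtie2 2.3.5, Picard 2.0.1, SAMtools, bedtools and mm10, with neither order nor settings. All names refer to replicate 1, numbers up to 7185 occur among 3668 peaks, while the use made of replicate 2 and IgG is not stated in these sources. Filtering before deposit can change counts of peaks in sparse sequence.

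Genes came from the RefSeq table of GRCm38.p6 (49554 genes on chromosomes 1 to 19 and X, 21631 protein-coding, 12697 lncRNA), which gives neither strand nor exons. The strand came from the RefSeq promoter table where it had the gene. A desert is the sequence between neighbouring protein-coding genes that meets the distances of the rule, and 6 peaks on other sequences were left out. Gaps in the assembly were not removed from desert lengths. A flanking gene is the nearest protein-coding gene on each side, and the 6 gene lists held 581 of 582, 33, 102, 68, 146 and 96 matched symbols. Members and lists were chosen with earlier results of these data known.

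Named genes flank every desert with 3 or more peaks, the 10 widest and 5 farthest desert peaks, every desert peak beside a listed transcription factor (values for the 25 nearest), and the 5 peaks on each side of the 100 kb limit. A few genes that this rule names are not reported here. Further names in other lists were chosen after their values were seen. Shares carry 95% Wilson intervals and no test was run, since the list is 1 set of positions. The planned E-box count under peaks was not run because no genome was used here. Alternatives were limits of 50 and 200 kb, other lncRNA rules, no predicted genes, the wider 50% of peaks, no X, and spacings of 10 and 100 kb. Leaving out the deserts of Isl1 and Zfp608, and length classes for adhesion genes, were added after seeing the data. The scripts were tested on simulated data. The software was matplotlib 3.10.9, pandas 2.3.3, numpy 2.4.6 and scipy 1.17.1 under Python 3.11.15.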

Additional observations from a re-analysis of the deposited data

How the results depend on the processing

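Of 41 alternative values, 23 stayed within the counting interval of the reported value and 18 moved beyond it. The share of peaks in deserts, 10.8% as reported, was 14.4% at 50 kb, 6.36% at 200 kb, 12.8% with no lncRNA limit, 9.58% outside lncRNA genes altogether and 12.4% among the wider 50% of peaks. The share of sequence in deserts, 27.2% as reported, was 34.2% at 50 kb, 19.4% at 200 kb, 28.7% with no lncRNA limit, 25.1% outside lncRNA genes, 29.0% without predicted genes and 26.7% without X. In each of these settings the share of peaks stayed under the share of sequence. The median width was 493 bp among the wider 50% of peaks. The share with another peak within 50 kb, 21.0% as reported, was 15.5% at 200 kb and 15% among the wider 50%, and it was 8.35% within 10 kb and 31.4% within 100 kb. Desert peaks beside a listed transcription factor, 24.6% as reported, were 22.9 to 28.8% over the other region and peak settings, above the 14.1 to 15.4% of desert bases in each, 14.2% by the nearer gene alone (7.94% of bases), and 20.3% without the deserts of Isl1 and Zfp608 (14.4% of bases). These shifts follow from the changed sets of peaks, genes or distances. No paired analysis was possible because the list holds no value per library, and for the same reason no replicate could be left out. The planned E-box alternatives were not run, since no genome was used here. Depth is unknown, so what it limits cannot be stated.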

Other observations

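Neighbouring desert peaks in one desert often carried consecutive numbers in the deposited list, as neighbouring listed peaks often did in general. Over 130 such pairs, 82 numbers fell between those of the paired desert peaks (0.631 per pair), and 58.5% of pairs had none between. Some of these numbers belong to listed peaks that are not desert peaks. Between Gm4791 and Cadm1, for example, all 4 of 4 numbers in the range were listed, but only 3 peaks were desert peaks. Over all 3642 pairs of neighbouring peaks on a chromosome, 0.954 numbers per pair were absent and 51.6% of pairs had none absent. The rates per pair count different things, so they cannot be compared. In the Itga1 to Isl1 desert, 9 of 12 numbers in the range were listed, and in the Prl5a1 to Sox4 and Rnf144b to Id4 deserts all 4 of 4 were. Between Pcdh20 and Pcdh9, 3 of 9 were listed, and between Zfp608 and Gramd3, 7 of 13.

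The least width in the list, 177 bp, was shared by 7 desert peaks (1.77%) and 64 other peaks (1.96%). Among the desert peaks of chromosome X, 1 was 801 bp wide and lay between Diaph2 and the protocadherin gene Pcdh19, and 1 was 326 bp wide and lay between Egfl6 and Tmsb4x. Further close pairs of desert peaks lay between Ifng and Dyrk2 (311 bp apart, 506 and 443 bp wide), between Abra and Angpt1 (478 bp apart), and beside Kif26a (387 bp apart).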
